A study of Mus musculus with 12 samples.

Results

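The 40 genes described here encode proteins of DNA replication and mitosis, and they were read in mouse back skin after an epicutaneous patch. They are a fixed list of gene symbols, grouped by function, and each was found in the deposited table of 23469 Entrez Gene IDs. All 40 passed the filter on low counts, as did 15341 genes in all. The list splits by role into 9 genes of replication licensing and the replicative helicase, 4 genes of DNA synthesis and nucleotide supply, 10 cyclins and mitotic kinases with their activating phosphatase, 6 genes of the spindle checkpoint and anaphase, 6 spindle motors and assembly factors, 3 centromere proteins, and Mki67 with Top2a.

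Skin of BALB/C mice was shaved on day 0, patched on day 1, freed of the patch on day 4 and taken on day 5. In the sample titles the strain is named for wild-type mice only. The groups were labelled-null mice under ASP, wild-type mice under ASP, labelled-null mice under SAL and wild-type mice under SAL, with 3 libraries in each and 12 in all. ASP was 200 µg of Aspergillus fumigatus extract, a mould allergen. The labels do not expand SAL, and the single patch protocol given for all mice describes ASP only. The labels give no age, sex or allele, and do not say whether each library came from a separate animal, so p-values measure the spread between these libraries.

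The second genotype carries conflicting labels, since the titles call it SCCA2KO, the genotype field calls it Serpinb3a-transgenic and the design text calls it Serpinb3a null. Serpinb3a encodes a cytosolic protease inhibitor of the skin. Its level in CPM (counts relative to a library size scaled by the trimmed mean of M-values, TMM) was 2.31, 1.74 and 1.98 in labelled-null ASP libraries and 0.699, 1.40 and 0.264 in wild-type ASP libraries. Under SAL it was 6.39, 8.61 and 7.21 in labelled-null libraries, against 0.725, 0.720 and 0.304 in wild-type libraries. These values rest on 2 to 76 counts a library. The counted transcript was thus higher in the animals labelled null. That goes against the label without settling the genotype, and the animals are called labelled-null throughout. Where in the gene any lesion lies is not given, so reads from another part of the transcript are not told apart. Nor are reads of related genes that may have been assigned to it.

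Library totals ran from 6705396 to 12933436 counts. Major urinary protein (Mup) symbols took between 8.43% and 39.02% of the counts of a library, and the gene IDs without a symbol took between 7.57% and 15.8%. The third wild-type ASP library and the first labelled-null SAL library were farthest from the rest, with median Spearman correlations of 0.943 and 0.929 with the others. Markers of basal keratinocytes were present in all libraries, with a summed level of 1327 to 5080 CPM over 7 genes, as were those of suprabasal keratinocytes with 3041 to 10530 CPM over 5 genes. Genes of the hair matrix, hair shaft and inner root sheath summed to 544 CPM in the first wild-type SAL library and to at most 72.8 CPM in the other 11 libraries. Skeletal muscle genes, 10 in number, summed to between 21316 CPM in the second wild-type ASP library and 105412 CPM in the first wild-type SAL library. The third wild-type SAL library had 99251 CPM of them.

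In the cell cycle, the licensing factors Cdc6 and Cdt1 load the ring-shaped Mcm2 to Mcm7 helicase onto replication origins before S phase, and the helicase then opens the DNA for synthesis. Cyclins switch on their kinases in order, the kinases Aurora and Polo with kinesin motors build the spindle, and the checkpoint holds anaphase until each chromosome is attached. In skin most dividing cells sit in the basal epidermal layer and in growing hair follicles, and many of these genes are transcribed mainly in S, G2 or M phase, under the E2F, B-Myb and FoxM1 factors with NF-Y. A level in bulk skin mixes the number of dividing cells with the RNA per cell, and fewer cells of a type and less RNA per cell cannot be told apart.

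Promoter sequence was compared first, because it is shared information that the choice of genes did not use. RefSeq windows on GRCm38.p6, running from 250 bases before to 50 bases after the transcript start, were matched by symbol for 32 of the 40 genes and gave 33 windows. A CCAAT box (letters CCAAT on either strand, the NF-Y motif) was found in 26 of the 33 windows, which is 78.8%, against 37.4% of all 32851 windows. The cell cycle homology region letters TTTGAA or TTCGAA, on either strand, were in 18 windows (54.5%, against 19.2% of all windows). An E2F letter string (TTTCCCGC, TTTGGCGC or TTTCGCGC, on either strand) was in 7 windows (21.2%, against 1.84% of all). TTCGAA reads the same on both strands, and overlapping matches were counted separately. These are matches to the listed letters only, and other forms of each element were not searched. The median GC content of the windows was 58% for these genes, against 52.67% for all.

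The E2F matches fell in Cdc6, Cdt1, Cdk1, Mcm3, Mcm5, Mcm6 and Mcm7. Apart from Cdk1, those genes belong to replication licensing. Mitotic genes such as Top2a, Ccnb2, Bub1b and Mki67 carried cell cycle homology letters and no E2F string. The split was not clean. Ccnb1, Birc5, Cenpe and Nusap1 carried neither, while the licensing genes Mcm2 and Mcm7 carried homology letters. Both kinds of match were found for Cdk1 and Mcm7. Upstream sequence is printed for Mki67 as the marker of proliferation, for Top2a as the promoter with the most matches, and for Mcm3 and Ccnb1 as the genes with the smallest unadjusted p-values. The stretches are the part of each window that lies upstream of the gene's RefSeq span, read 5′ to 3′ on the minus strand of GRCm38.p6, at chr7:135716451-135716629 for Mki67, chr11:99024200-99024439 for Top2a, chr1:20820313-20820562 for Mcm3 and chr13:100786487-100786736 for Ccnb1. Capitals mark CCAAT (or ATTGG, its reverse) and the cell cycle homology letters (or their reverse).
Mki67: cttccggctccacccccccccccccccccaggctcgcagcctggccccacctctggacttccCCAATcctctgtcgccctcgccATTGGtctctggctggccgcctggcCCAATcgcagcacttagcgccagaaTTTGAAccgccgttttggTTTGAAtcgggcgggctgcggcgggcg
Top2a: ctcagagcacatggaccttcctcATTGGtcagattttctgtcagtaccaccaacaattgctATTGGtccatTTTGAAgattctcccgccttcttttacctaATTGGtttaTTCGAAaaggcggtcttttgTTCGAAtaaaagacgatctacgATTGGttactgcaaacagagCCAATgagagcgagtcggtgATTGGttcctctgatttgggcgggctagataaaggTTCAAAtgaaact
Mcm3: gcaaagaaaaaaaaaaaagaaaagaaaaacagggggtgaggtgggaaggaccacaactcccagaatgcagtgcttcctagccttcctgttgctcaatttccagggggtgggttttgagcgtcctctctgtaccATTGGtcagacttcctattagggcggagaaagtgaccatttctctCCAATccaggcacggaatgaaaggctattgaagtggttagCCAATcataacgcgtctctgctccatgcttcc
Ccnb1: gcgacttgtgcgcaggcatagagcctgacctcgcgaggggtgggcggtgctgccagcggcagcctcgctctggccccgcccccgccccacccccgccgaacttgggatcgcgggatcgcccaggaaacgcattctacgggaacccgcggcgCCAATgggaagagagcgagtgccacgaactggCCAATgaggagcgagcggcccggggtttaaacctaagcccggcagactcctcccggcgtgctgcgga
Top2a had 6 CCAAT and 4 homology matches in this stretch, and Mki67 had 3 and 2. Mcm3 had 3 CCAAT matches and Ccnb1 had 2, with no homology match in either. Both E2F strings of Mcm3 lie in the 50 bases after the start, which are not printed. The gene spans are chr7:135689784-135716450 (Mki67), chr11:98992947-99024199 (Top2a), chr1:20802966-20820312 (Mcm3) and chr13:100778739-100786486 (Ccnb1) in RefSeq, all on the minus strand.

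Mki67, which encodes the Ki-67 antigen that coats mitotic chromosomes and is the standard marker of cycling cells, was the most abundant of the 40 transcripts. Mki67 had 364, 258 and 267 CPM in labelled-null ASP libraries, 328, 131 and 560.5 in wild-type ASP libraries, 191, 489 and 351 in labelled-null SAL libraries and 576, 414 and 204 in wild-type SAL libraries. The lowest value and the highest value of the 12 libraries were both in wild-type skin, and the groups overlapped in each comparison. The mean was 296 ± 58.6 CPM in labelled-null ASP and 340 ± 215 CPM in wild-type ASP (SD, n = 3 each). Under SAL it was 344 ± 149 CPM in labelled-null and 398 ± 187 CPM in wild-type skin (SD, n = 3 each). The log2 fold change of labelled-null over wild type was -0.20 ± 0.48 under ASP and -0.21 ± 0.48 under SAL (± SE, edgeR, unadjusted p = 0.688 and 0.669). ASP over SAL gave -0.22 ± 0.48 in labelled-null and -0.23 ± 0.48 in wild-type skin, each smaller than its standard error.

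Per kilobase of exon, Mki67 averaged 34.3 CPM over the 12 libraries, with 21.7 for Tyms, 17.8 for Top2a and 14.3 for Pcna. At the other end stood Cdk1 with 0.904, Ccne1 with 0.678 and Cdc6 with 0.293 CPM per kilobase. Mki67 alone made up between 18.4% and 47.6% of the counts of the 40 genes in a library. The genes are described singly and not by their sum.

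**Figure D1:**
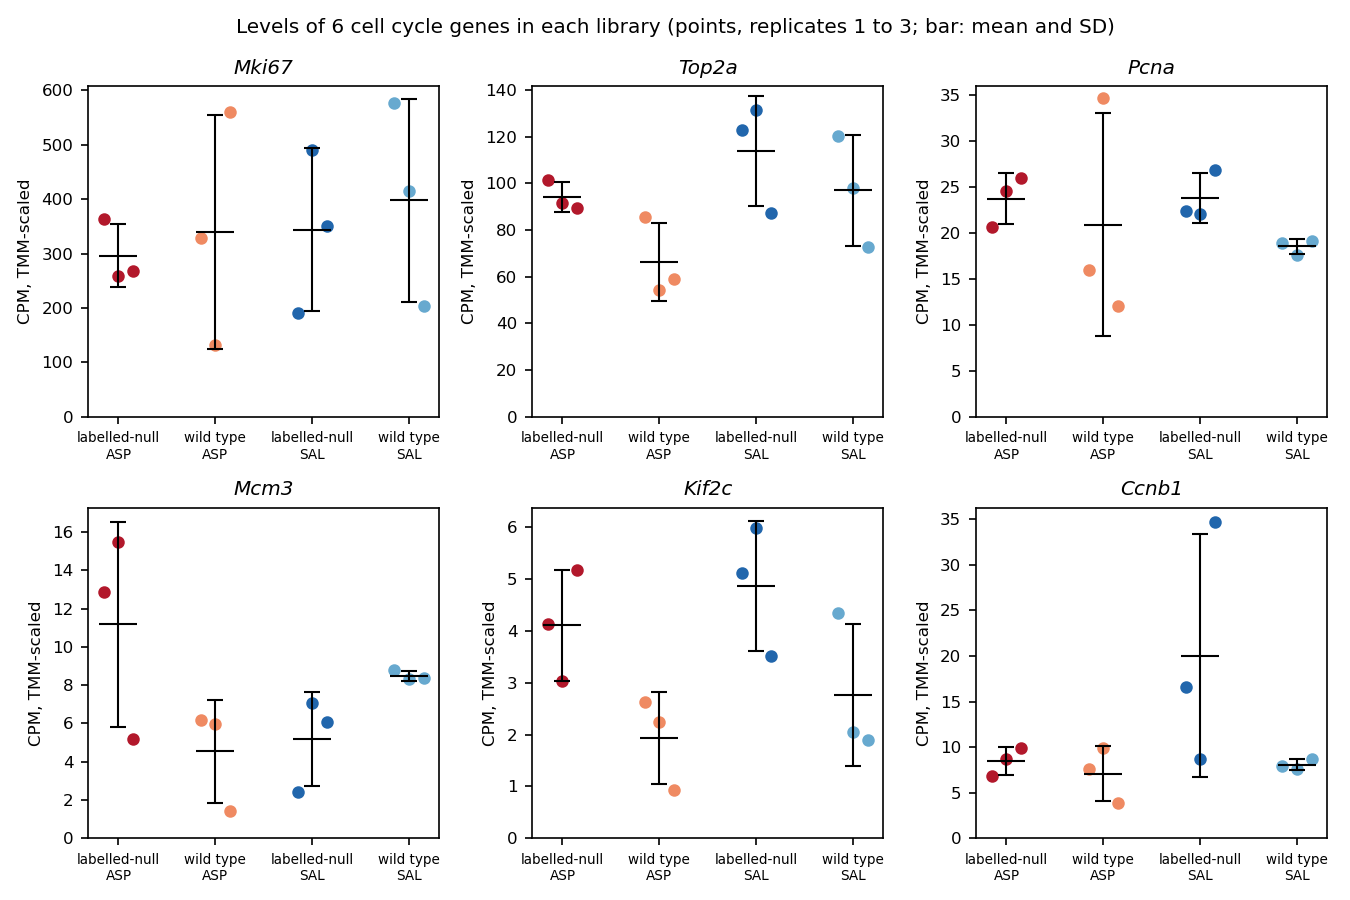
Scaled CPM for members named in the text, one point per library, with labelled-null groups beside wild type and a bar at each group mean. Points of the 4 groups overlap for Mki67, where single libraries run from 131 to 576 CPM, and most other panels overlap too.

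The first question was whether labelled-null skin differed from wild-type skin under ASP. None of the 40 genes passed an adjusted p of 0.05 in edgeR's quasi-likelihood test, and 0% of the 15341 genes tested did in either direction. The same was true of the 40 genes in DESeq2 and in limma-voom. At an unadjusted p under 0.05, 1 of the 40 was higher in labelled-null skin, against 0.906% of all genes, and 0 were lower, against 2.16%. The 40 log2 fold changes had a median of 0.18, with 26 above 0. Over all tested genes the median was -0.04, with 7146 of 15341 above 0. The median standard error of the 40 was 0.47 and the smallest edgeR adjusted p was 0.999. By unadjusted p the first 4 genes with a positive log2 fold change were Mcm3 (1.29), Kif2c (1.07), Kif23 (0.65) and Top2a (0.50). The first 4 with a negative one were Bub1 (-0.60), Ccne1 (-1.16), Cdc25c (-0.79) and Birc5 (-0.30).

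Of 5 genes, all 3 labelled-null ASP libraries lay above all 3 wild-type ASP libraries, which is 12.5% of the 40 against 4.15% of all genes. They were Top2a, Ccna2, Aurka, Kif2c and Nusap1. None lay wholly below, against 3.47% of all genes. Counted again without the 2 libraries farthest from the rest, a count added after seeing the data, 8 genes lay wholly above (20% of the 40, against 7.29% of all genes) and 1 below (2.5%, against 6.85%). With RLE size factors in place of TMM, also added after seeing the data, the same 5 genes lay above (3.87% of all genes) and Gins2 lay below (2.5% of the 40, against 3.75%). With 3 libraries against 3, an exact permutation test of one gene cannot give a two-sided p below 0.1. Ccna2 overlaps Exosc9, Aurka overlaps Cstf1 and Nusap1 overlaps Oip5 in the genome. In all, 12 of the 40 genes overlap another gene span, and 8 overlap a protein-coding gene. Mcm7, Gins2, Ccne2, Cdc20 and Kif20a are also among those 8. The strand setting of the counting is not given, so reads from the shared stretches are not told apart.

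**Figure D2:**
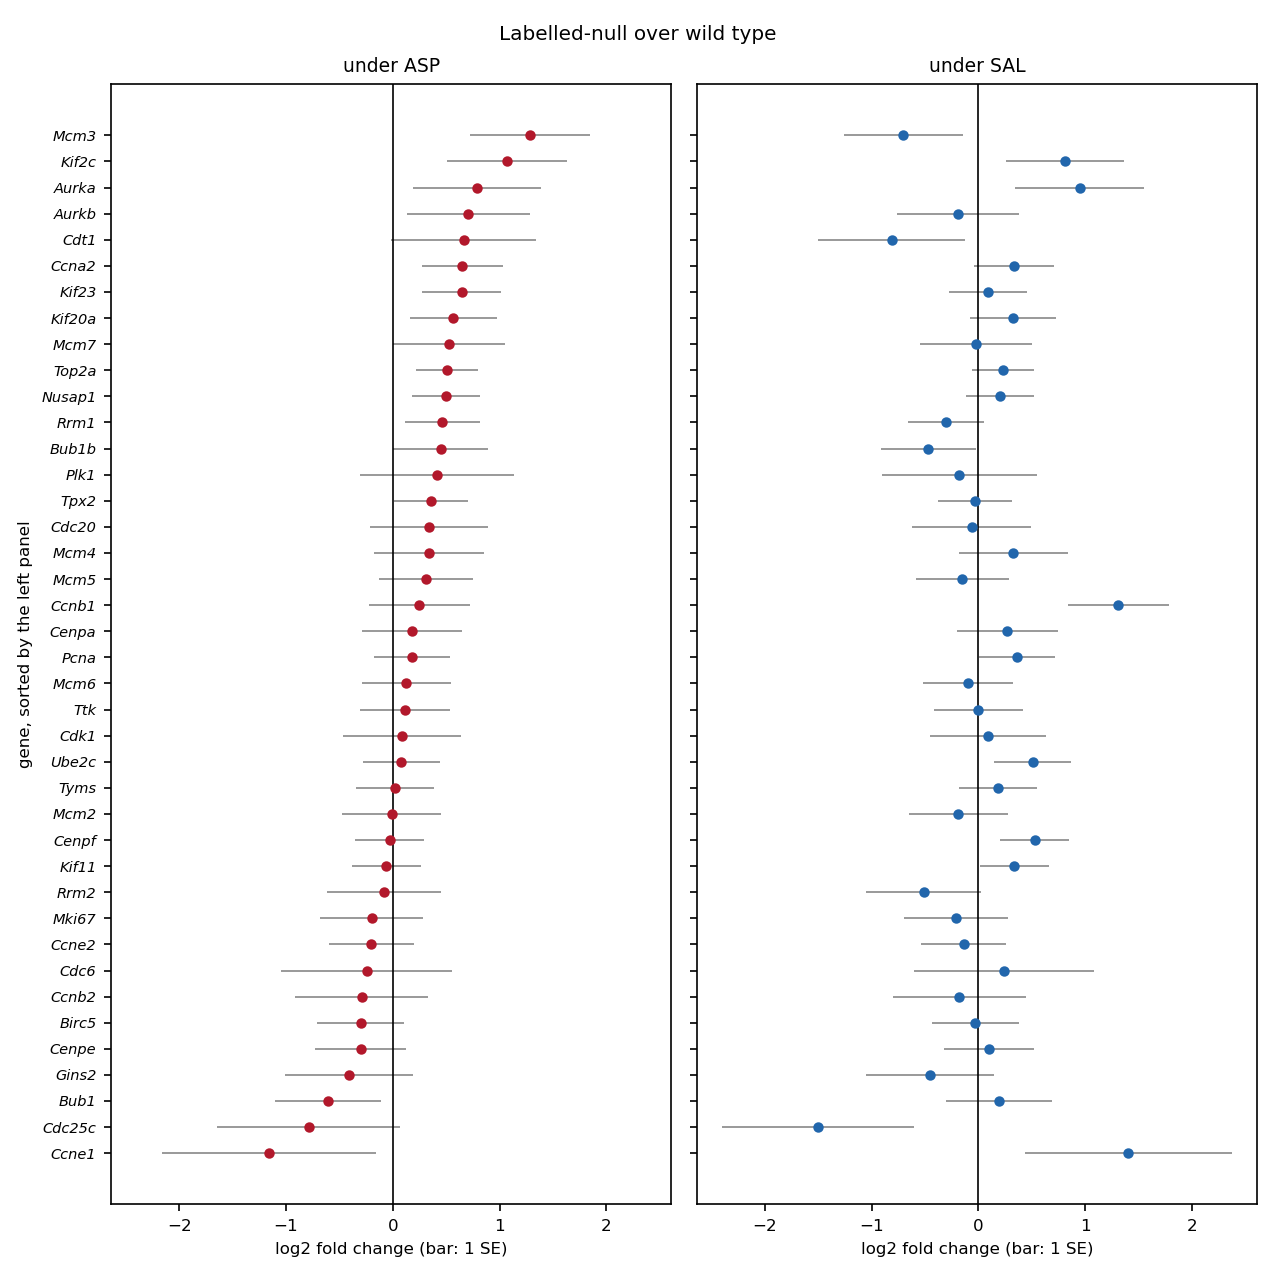
Fitted log2 fold change of labelled-null over wild type for the 40 genes under ASP (left) and under SAL (right), with bars of 1 standard error; genes are sorted by the left panel. The values run from -1.16 (Ccne1) to 1.29 (Mcm3) under ASP and from -1.50 (Cdc25c) to 1.40 (Ccne1) under SAL.

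Under SAL the same genotype comparison again called 0 of the 40 genes by edgeR, DESeq2 or limma-voom, and edgeR called 0% of all genes. At an unadjusted p under 0.05, 1 gene was higher in labelled-null skin (2.21% of all genes) and 0 were lower (2.16%). The median log2 fold change was 0.05 with 21 of 40 above 0, against 0.01 with 7864 of 15341 above 0 over all genes. Without the first wild-type SAL library, the one with hair transcripts, the median was 0.20. Smallest in p among positive log2 fold changes were Ccnb1 (1.31), Cenpf (0.53), Aurka (0.95) and Kif2c (0.81), and among negative ones Cdc25c (-1.50), Mcm3 (-0.70), Cdt1 (-0.81) and Bub1b (-0.47). Pcna, Ccne1 and Aurka lay wholly above wild type (7.5% of the 40, against 3.62% of all genes) and Mcm3 wholly below (2.5%, against 4.44%). With RLE size factors Ccnb1 joined the genes wholly above (10% of the 40, against 3.9% of all genes).

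Averaged over both treatments, labelled-null over wild type gave a median of 0.12 for the 40 genes, with 27 above 0, and -0.02 for all genes. edgeR called 0 of the 40 and 1 gene in the whole table, which is 0.00652% higher and 0% lower. That gene was Serpinb11, named after its value was seen, at a log2 fold change of 3.06 (edgeR adjusted p = 0.0257). No member had all 6 labelled-null libraries above or below all 6 wild-type libraries, against 0.15% of genes above and 0.0521% below. At an unadjusted p under 0.05, 2 of the 40 were higher (1.69% of all genes) and 0 lower (2.05%). They were Kif2c at 0.94 ± 0.40 and Ccnb1 at 0.78 ± 0.33 (edgeR log2 fold change ± SE, unadjusted p = 0.0297 and 0.0323). Next among positive values came Aurka (0.87) and Ccna2 (0.49). Among negative values the smallest p-values belonged to Cdc25c (-1.15), Gins2 (-0.43), Rrm2 (-0.30) and Ccne2 (-0.17).

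The second question was what the ASP patch did relative to SAL within a genotype. In labelled-null skin 0 of the 40 genes were called by edgeR, DESeq2 or limma-voom, with 0% of all genes called by edgeR. At an unadjusted p under 0.05, 0 were higher under ASP (1.54% of all genes) and 2 were lower (2.97%), Ccnb1 and Ccne1. The median was 0.04 with 24 of 40 above 0, against -0.01 over all genes. Positive log2 fold changes with the smallest p were those of Mcm3 (1.10), Rrm1 (0.68), Cdc25c (1.31) and Rrm2 (0.77), and negative ones those of Ccnb1 (-1.24), Ccne1 (-2.23), Cenpf (-0.55) and Ube2c (-0.43). Cdc25c and Tpx2 lay wholly above SAL (5% of the 40, against 5.85% of all genes) and Ccne1 wholly below (2.5%, against 4.63%). With RLE size factors only Cdc25c lay above (2.5%, against 5.38%), while Ccne1, Cdk1 and Ube2c lay below (7.5%, against 5.18%).

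In wild-type skin ASP over SAL also called 0 of the 40, with 0% of all genes by edgeR. No member reached an unadjusted p under 0.05 in either direction, against 2.87% of all genes higher and 1.87% lower. The median was -0.08 with 17 of 40 above 0, against 0.02 over all genes. Without the first wild-type SAL library, the one with hair transcripts, it was 0.029 with 20 of 40 above 0, and without the first wild-type ASP library it was -0.198. Here the positive values with the smallest p were Cdc6 (1.32), Cenpe (0.53), Mcm6 (0.33) and Bub1 (0.37), and the negative ones Top2a (-0.55), Bub1b (-0.81), Aurkb (-1.04) and Mcm3 (-0.89). Mcm3, Gins2 and Bub1b lay wholly below SAL (7.5%, against 3.6% of all genes) and none wholly above (3.18%). Both genotype comparisons and both treatment comparisons use the same 12 libraries, so their values are not independent.

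**Figure D3:**
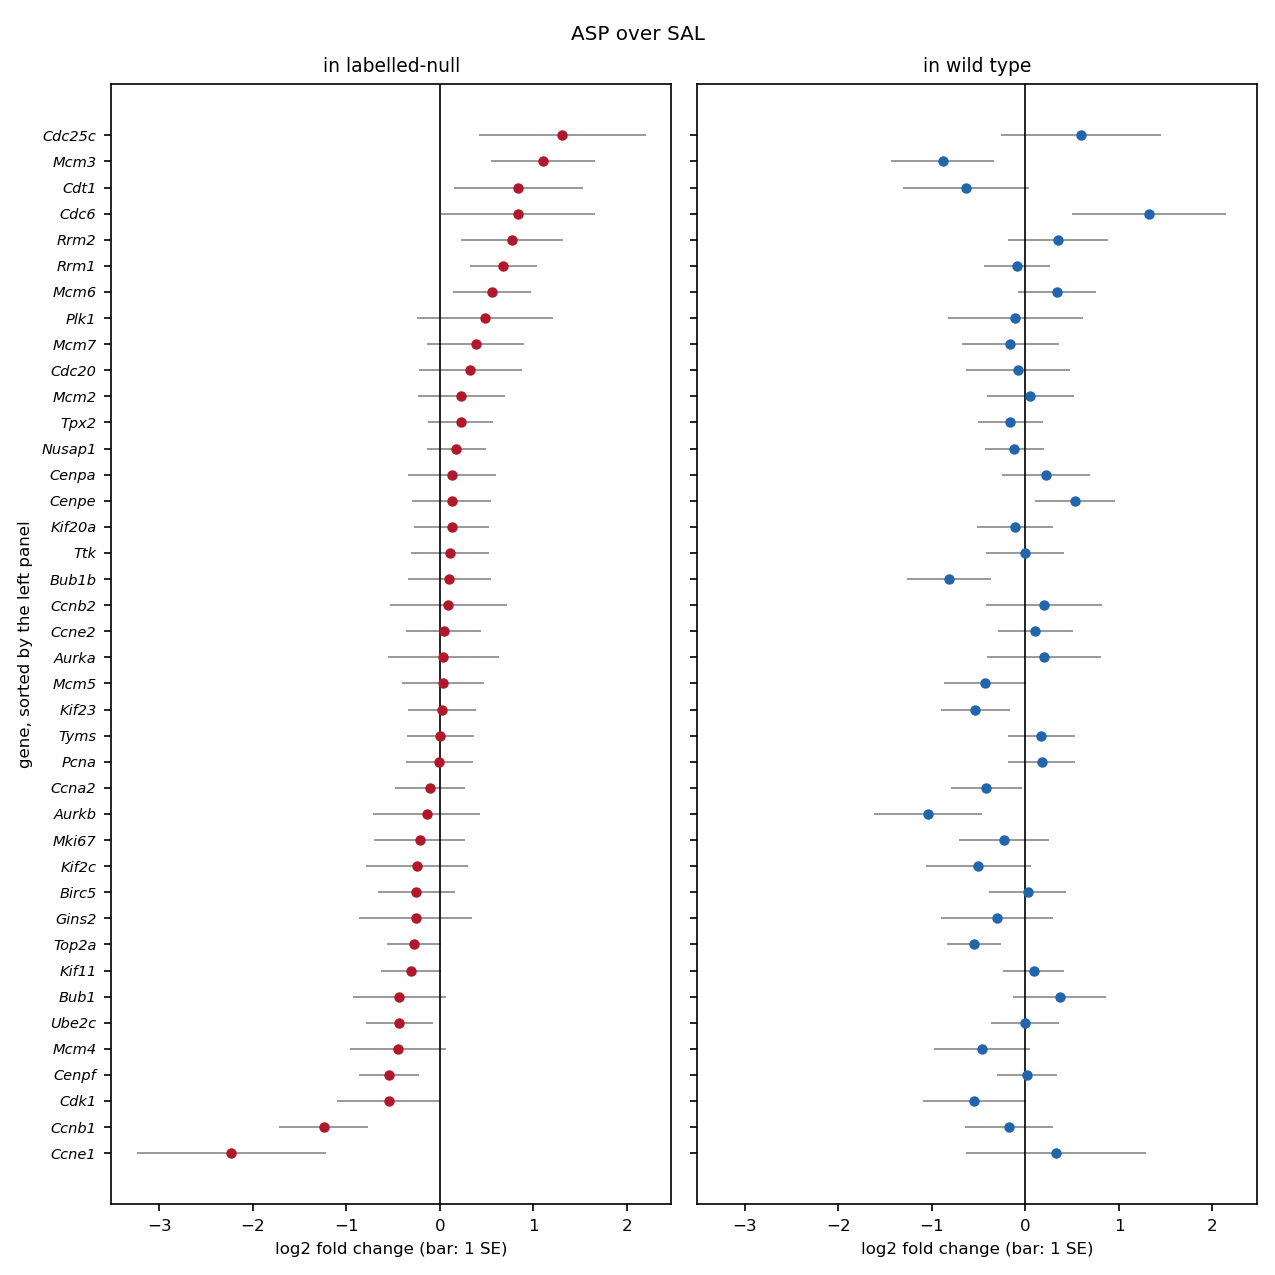
Fitted log2 fold change of ASP over SAL for the 40 genes in labelled-null skin (left) and in wild-type skin (right), with bars of 1 standard error; genes are sorted by the left panel. Ccne1 at -2.23 and Ccnb1 at -1.24 are lowest in labelled-null skin, and Aurkb at -1.04 is lowest in wild-type skin.

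Averaged over both genotypes, ASP over SAL had a median of 0.03 for the 40 genes, 22 of them above 0, and of -0.01 for all genes. edgeR called 0 of the 40 and 0% of all genes. At an unadjusted p under 0.05, 0 were higher (3% of all genes) and 1 was lower (2.64%), Ccnb1 at -0.71 ± 0.33 (edgeR log2 fold change ± SE, unadjusted p = 0.0485). Top2a (-0.41), Aurkb (-0.59) and Cdk1 (-0.55) came next among negative values, and Cdc6 (1.08), Cdc25c (0.95), Mcm6 (0.45) and Rrm2 (0.56) first among positive ones. None lay wholly above or below SAL over both genotypes, against 0.0978% and 0.0847% of genes. The difference of the ASP effect between the genotypes, tested as an interaction, had a median of 0.14 against -0.06 for all genes. It called 0 of the 40 and 0% of all genes. Mcm3 was the 1 gene above 0 at an unadjusted p under 0.05 (1.48% of all genes), and 0 were below (2.33%). The smallest p-values belonged to Mcm3 (1.99), Cdt1 (1.48), Rrm1 (0.77) and Bub1b (0.92) on the positive side and to Ccne1 (-2.56), Ccnb1 (-1.06), Cenpf (-0.56) and Bub1 (-0.80) on the negative side. DESeq2 and limma-voom called none of the 40 in either of these comparisons.

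Among the licensing and helicase genes, Mcm3, a subunit of the replicative helicase ring, had the smallest unadjusted p of the 40 genes in the ASP genotype comparison and in the interaction. Mcm3 had 12.9, 15.5 and 5.17 CPM in labelled-null ASP libraries, 6.200, 5.97 and 1.45 in wild-type ASP libraries, 2.396, 7.06 and 6.07 in labelled-null SAL libraries and 8.79, 8.33 and 8.35 in wild-type SAL libraries. All of the wild-type SAL libraries lay close together, above each labelled-null SAL and wild-type ASP library, while labelled-null ASP held both the highest values and one low value. Labelled-null over wild type was 1.29 ± 0.56 under ASP (log2 fold change ± SE, unadjusted p = 0.0343, edgeR adjusted p = 0.999) and -0.70 ± 0.56 under SAL. ASP over SAL was 1.10 ± 0.56 in labelled-null and -0.89 ± 0.56 in wild-type skin. The interaction was 1.99 ± 0.79 (unadjusted p = 0.0219, edgeR adjusted p = 0.998). The third wild-type ASP library had the lowest value of the 12, from 11 counts, and is one of the 2 libraries that stood apart.

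Mcm6, another subunit of that ring, followed no group. Mcm6 had 14.1, 16.9 and 10.9 CPM in labelled-null ASP libraries, 20.5, 11.7 and 6.07 in wild-type ASP libraries, 6.87, 11.6 and 9.96 in labelled-null SAL libraries and 10.4, 8.94 and 11.1 in wild-type SAL libraries. Its highest and lowest values were both in wild-type ASP skin. Mcm2, Mcm4, Mcm5 and Mcm7, the other ring subunits, had log2 fold changes of labelled-null over wild type between -0.01 and 0.52 under ASP and between -0.19 and 0.33 under SAL. Mcm4 had 44.1 CPM in the third labelled-null SAL library and at most 20.8 CPM in any other.

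Cdc6, the ATPase that helps load the ring, was at low counts. Cdc6 had 0.961, 3.33 and 0.8804 CPM in labelled-null ASP libraries, 0.699, 1.49 and 4.09 in wild-type ASP libraries, 1.12, 0.957 and 0.854 in labelled-null SAL libraries and 1.18, 0.514 and 0.759 in wild-type SAL libraries. One library of each ASP group was high and all SAL libraries were near 1 CPM, with ASP over SAL at 1.32 ± 0.83 in wild-type skin (edgeR log2 fold change ± SE, unadjusted p = 0.128). Its counts were between 5 and 44. Cdt1, the loading factor that geminin blocks, was low as well. Cdt1 had 4.23, 4.02 and 1.32 CPM in labelled-null ASP libraries, 1.397, 3.17 and 1.45 in wild-type ASP libraries, 1.76, 1.196 and 2.37 in labelled-null SAL libraries and 1.27, 2.57 and 5.54 in wild-type SAL libraries. The groups overlapped, and Cdt1 had an interaction of 1.48 ± 0.96 with an unadjusted p of 0.145 by edgeR.

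Gins2, a subunit of the GINS complex that activates the ring, ran from 0.80 CPM in the first labelled-null SAL library to 10.6 CPM in the second library of the same group. Wild-type ASP libraries had 5.33, 6.35 and 5.81 CPM and wild-type SAL libraries had 6.53, 8.53 and 6.53 CPM. The wild-type values were narrow and did not overlap, yet the fitted log2 fold change of ASP over SAL there was only -0.30 ± 0.60.

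Of the genes that make DNA and its building blocks, Pcna encodes the sliding clamp of the polymerases. Pcna had 20.6, 24.5 and 25.97 CPM in labelled-null ASP libraries, 15.9, 34.6 and 12.02 in wild-type ASP libraries, 22.4, 22.01 and 26.9 in labelled-null SAL libraries and 18.9, 17.6 and 19.1 in wild-type SAL libraries. Labelled-null SAL skin lay wholly above wild-type SAL skin, while the wild-type ASP libraries held both the highest and the lowest value. The genotype difference was 0.18 ± 0.36 under ASP and 0.36 ± 0.36 under SAL (edgeR log2 fold change ± SE, unadjusted p = 0.62 and 0.328).

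Rrm1 and Rrm2 encode the large and the small subunit of ribonucleotide reductase, which makes deoxyribonucleotides. Rrm1 had 16.5, 28.2 and 25.6 CPM in labelled-null ASP libraries, 16.2, 19.1 and 15.6 in wild-type ASP libraries, 8.95, 15.6 and 19.3 in labelled-null SAL libraries and 19.9, 13.2 and 21.04 in wild-type SAL libraries. Rrm2 had 5.67, 12.1 and 7.26 CPM in labelled-null ASP libraries, 10.8, 9.43 and 6.21 in wild-type ASP libraries, 1.28, 7.896 and 5.31 in labelled-null SAL libraries and 9.33, 4.93 and 6.61 in wild-type SAL libraries. The first labelled-null SAL library was lowest for both subunits. ASP over SAL in labelled-null skin was 0.68 ± 0.36 for Rrm1 and 0.77 ± 0.54 for Rrm2 (edgeR log2 fold change ± SE, unadjusted p = 0.0736 and 0.172). Tyms, thymidylate synthase, had its highest values in that same labelled-null SAL library, at 115 CPM, and in the second wild-type ASP library, at 101 CPM. The other 10 libraries had between 45.7 and 88.4 CPM of Tyms.

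Ccnb1 encodes cyclin B1, which drives entry into mitosis with Cdk1. Ccnb1 had 6.83, 8.72 and 9.905 CPM in labelled-null ASP libraries, 7.598, 9.895 and 3.83 in wild-type ASP libraries, 16.6, 8.73 and 34.7 in labelled-null SAL libraries and 7.88, 7.61 and 8.73 in wild-type SAL libraries. The third labelled-null SAL library had 34.7 CPM and the first had 16.6 CPM, and all other libraries had less than 10 CPM. Labelled-null over wild type was 1.31 ± 0.47 under SAL (edgeR log2 fold change ± SE, unadjusted p = 0.0133, adjusted p = 1) and 0.25 ± 0.47 under ASP. In labelled-null skin, ASP over SAL was -1.24 ± 0.47 (unadjusted p = 0.018, edgeR adjusted p = 0.989). The second labelled-null SAL library, at 8.73 CPM, lay among the wild-type values, so the groups overlapped. Cdk1 itself, the partner kinase, had between 1.83 and 8.02 CPM.

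Ccna2 encodes cyclin A2, which acts in S and G2 phase. Ccna2 had 44.1, 41.3 and 44.02 CPM in labelled-null ASP libraries, 33.01, 29.6 and 19.7 in wild-type ASP libraries, 30.99, 65.1 and 42.7 in labelled-null SAL libraries and 54.8, 18.5 and 36.8 in wild-type SAL libraries. Labelled-null ASP libraries lay within 3 CPM of each other and above all wild-type ASP libraries, while the SAL groups overlapped. Over both treatments the averaged genotype value was 0.49 ± 0.27 (edgeR log2 fold change ± SE, unadjusted p = 0.0818).

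Ccne1 encodes cyclin E1, which starts S phase with Cdk2. Ccne1 had 0.288, 0.606 and 0.7704 CPM in labelled-null ASP libraries, 0.786, 2.89 and 0 in wild-type ASP libraries, 3.83, 1.67 and 2.47 in labelled-null SAL libraries and 0.997, 0.514 and 1.44 in wild-type SAL libraries. All counts of it were 31 or fewer, and the third wild-type ASP library had 0, which allows up to 3 counts, or 0.396 CPM there. In labelled-null skin the ASP libraries lay wholly below the SAL libraries, with a log2 fold change of -2.23 ± 1.01 (unadjusted p = 0.0418, edgeR adjusted p = 0.989). Labelled-null over wild type was -1.16 ± 1.00 under ASP, and 0.38 without the second wild-type ASP library, which alone had 2.89 CPM. Ccne2, cyclin E2, had between 9.61 and 24.1 CPM with no group apart.

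Cdc25c encodes the phosphatase that activates Cdk1. Cdc25c had 5.48, 5.99 and 3.96 CPM in labelled-null ASP libraries, 1.57, 2.71 and 22.7 in wild-type ASP libraries, 0.799, 2.15 and 3.13 in labelled-null SAL libraries and 3.08, 12.95 and 1.75 in wild-type SAL libraries. A value of 22.7 CPM stood in the third wild-type ASP library and one of 13.0 CPM in the second wild-type SAL library, and no other library passed 6 CPM. Its log2 fold change of labelled-null over wild type under ASP was -0.79 ± 0.86 with all libraries and 1.27 without the third wild-type ASP library, so 1 library set its sign. A pseudogene, Gm3550, lies inside its span.

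Aurka and Aurkb encode the Aurora kinases of the spindle poles and of the centromere. Aurka had 2.500, 2.88 and 2.09 CPM in labelled-null ASP libraries, 1.14, 1.87 and 1.32 in wild-type ASP libraries, 2.72, 2.99 and 1.61 in labelled-null SAL libraries and 1.36, 1.03 and 1.37 in wild-type SAL libraries. Aurkb had 10.1, 10.3 and 4.29 CPM in labelled-null ASP libraries, 6.99, 5.79 and 2.25 in wild-type ASP libraries, 5.91, 7.298 and 13.95 in labelled-null SAL libraries and 19.5, 5.24 and 6.46 in wild-type SAL libraries. For Aurka the labelled-null libraries lay wholly above the wild-type ones under each treatment, at a level near that of 10 to 38 counts a library. The averaged genotype difference was 0.87 ± 0.43 for Aurka (edgeR log2 fold change ± SE, unadjusted p = 0.0582). Aurkb was highest in the first wild-type SAL library and lowest in the third wild-type ASP library, and ASP over SAL in wild-type skin was -1.04 ± 0.58 (edgeR, unadjusted p = 0.0903). Plk1, the Polo kinase, stayed between 0.792 and 4.02 CPM.

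Bub1 and Bub1b encode kinase-family proteins of the spindle checkpoint. Bub1 had 3.94, 5.76 and 7.59 CPM in labelled-null ASP libraries, 4.89, 7.001 and 14.5 in wild-type ASP libraries, 6.71, 9.69 and 6.93 in labelled-null SAL libraries and 8.88, 8.22 and 3.34 in wild-type SAL libraries. Bub1b had 3.94, 6.67 and 7.37 CPM in labelled-null ASP libraries, 4.63, 3.55 and 5.02 in wild-type ASP libraries, 6.23, 4.55 and 5.98 in labelled-null SAL libraries and 11.6, 6.07 and 5.54 in wild-type SAL libraries. Bub1 was highest in the third wild-type ASP library, and its log2 fold change of labelled-null over wild type under ASP was -0.60 ± 0.50 (edgeR, unadjusted p = 0.242). Without that library it was -0.042, and in limma-voom with all libraries -0.17. For Bub1b the wild-type ASP libraries lay wholly below the wild-type SAL libraries, with -0.81 ± 0.45 as the log2 fold change of ASP over SAL (edgeR, unadjusted p = 0.0865). The first wild-type SAL library was the highest of the 12 for Bub1b.

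Birc5 encodes survivin, a subunit of the chromosomal passenger complex with Aurora B. Birc5 had 36.2, 18.9 and 27.8 CPM in labelled-null ASP libraries, 44.8, 17.5 and 40.01 in wild-type ASP libraries, 46.5, 22.4 and 29.99 in labelled-null SAL libraries and 42.8, 37.8 and 20.05 in wild-type SAL libraries. Its libraries spread over the same range in each group, and labelled-null over wild type under ASP was -0.30 ± 0.41 (edgeR log2 fold change ± SE, unadjusted p = 0.472). Ttk (the checkpoint kinase Mps1), Cdc20 (an activator of the anaphase-promoting complex) and Ube2c (its ubiquitin-conjugating enzyme) had log2 fold changes of labelled-null over wild type of 0.11, 0.34 and 0.08 under ASP. Ube2c had -0.43 ± 0.36 for ASP over SAL in labelled-null skin, with an unadjusted p of 0.245 by edgeR.

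Of the 6 spindle genes, 5 had a positive log2 fold change of labelled-null over wild type under ASP. Kif11, the motor that pushes spindle poles apart, was at -0.06. Among all tested genes 7146 of 15341 had a positive value there. Kif2c encodes a kinesin that takes microtubules apart at the centromere. Kif2c had 4.13, 3.03 and 5.17 CPM in labelled-null ASP libraries, 2.62, 2.24 and 0.924 in wild-type ASP libraries, 5.11, 5.98 and 3.51 in labelled-null SAL libraries and 4.35, 2.06 and 1.899 in wild-type SAL libraries. Labelled-null ASP skin lay wholly above wild-type ASP skin, and in the SAL groups the first wild-type library, at 4.35 CPM, lay among the labelled-null ones. The log2 fold change was 1.07 ± 0.56 under ASP (unadjusted p = 0.0748, edgeR adjusted p = 0.999) and 0.81 ± 0.56 under SAL. Counts of Kif2c were between 7 and 50 a library.

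Kif23 encodes a motor of the midzone and of cell division. Kif23 had 27.8, 23.9 and 27.2 CPM in labelled-null ASP libraries, 25.6, 13.6 and 11.1 in wild-type ASP libraries, 29.6, 22.5 and 25.8 in labelled-null SAL libraries and 35.9, 20.9 and 16.3 in wild-type SAL libraries. Labelled-null ASP libraries were close together, between 23.9 and 27.8 CPM, and the first wild-type ASP library, at 25.6 CPM, lay among them. The fold change under ASP was 0.65 ± 0.37 on the log2 scale (edgeR, unadjusted p = 0.0977). Nusap1, a spindle microtubule bundler, had 23.0, 17.8 and 27.2 CPM in labelled-null ASP libraries and 13.97, 17.3 and 16.9 CPM in wild-type ASP libraries, a log2 fold change of 0.50 ± 0.32. Tpx2, an activator of Aurora A, had 17.5, 17.9 and 15.8 CPM in labelled-null ASP libraries, against 15.5, 14.7 and 13.7 CPM in labelled-null SAL libraries. Kif20a, a midzone kinesin, had 0.57 for labelled-null over wild type under ASP.

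Cenpf encodes a large kinetochore protein that appears in G2 phase. Cenpf had 62.3, 41.99 and 64.8 CPM in labelled-null ASP libraries, 52.9, 47.2 and 72.5 in wild-type ASP libraries, 60.1, 106 and 81.1 in labelled-null SAL libraries and 63.7, 70.4 and 37.1 in wild-type SAL libraries. The second and the third labelled-null SAL libraries were the highest of the 12. Labelled-null over wild type under SAL was 0.53 ± 0.32, and ASP over SAL in labelled-null skin was -0.55 ± 0.32 (edgeR log2 fold change ± SE, unadjusted p = 0.119 and 0.109). Cenpe, the kinetochore kinesin, had 48.1 CPM in the third wild-type ASP library and between 11.0 and 28.7 CPM elsewhere. Cenpa, the centromeric histone H3 variant, had between 2.78 and 9.09 CPM.

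Top2a encodes topoisomerase II alpha, which untangles DNA before anaphase. Top2a had 101, 91.7 and 89.4 CPM in labelled-null ASP libraries, 85.6, 54.2 and 59.2 in wild-type ASP libraries, 123, 131 and 87.1 in labelled-null SAL libraries and 120.4, 97.8 and 72.6 in wild-type SAL libraries. Wild-type ASP skin had the lowest mean of the 4 groups, and its libraries lay wholly below the labelled-null ASP libraries. Top2a in labelled-null over wild type was 0.50 ± 0.29 under ASP and ASP over SAL was -0.55 ± 0.29 in wild-type skin (edgeR log2 fold change ± SE, unadjusted p = 0.1 and 0.0771, adjusted p = 0.999 for each). Its first wild-type ASP library, at 85.6 CPM, lay within the range of wild-type SAL skin, which was 72.6 to 120.4 CPM. Top2a had the smallest standard error of the 40 genes, 0.29, from counts between 448 and 1328.

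Library by library, the median log2 deviation of the 40 genes from their own means was 0.12, 0.25 and 0.08 in labelled-null ASP libraries and -0.10, -0.22 and -0.15 in wild-type ASP libraries. Under SAL it was -0.11, 0.18 and 0.08 in labelled-null libraries and 0.19, -0.12 and -0.14 in wild-type libraries. In labelled-null ASP libraries 24, 27 and 24 of the 40 genes were above their mean, against 14, 17 and 14 in wild-type ASP libraries. The SAL groups gave 16, 27 and 23 in labelled-null and 25, 18 and 15 in wild-type libraries and overlapped. These counts were not made over all tested genes, so a shift shared by other genes is not told apart. Genes of the same library are not replicates of a group. The first wild-type SAL library, which held the hair transcripts and the highest sum of skeletal muscle genes, was also the highest wild-type library for the 40 genes. The part of hair follicles or of muscle in that was not tested. Basal keratinocyte markers summed to 4364, 3250 and 1747 CPM in labelled-null ASP libraries and to 4411, 1513 and 1776 CPM in wild-type ASP libraries, and their part in the deviations was not tested.

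**Figure D4:**
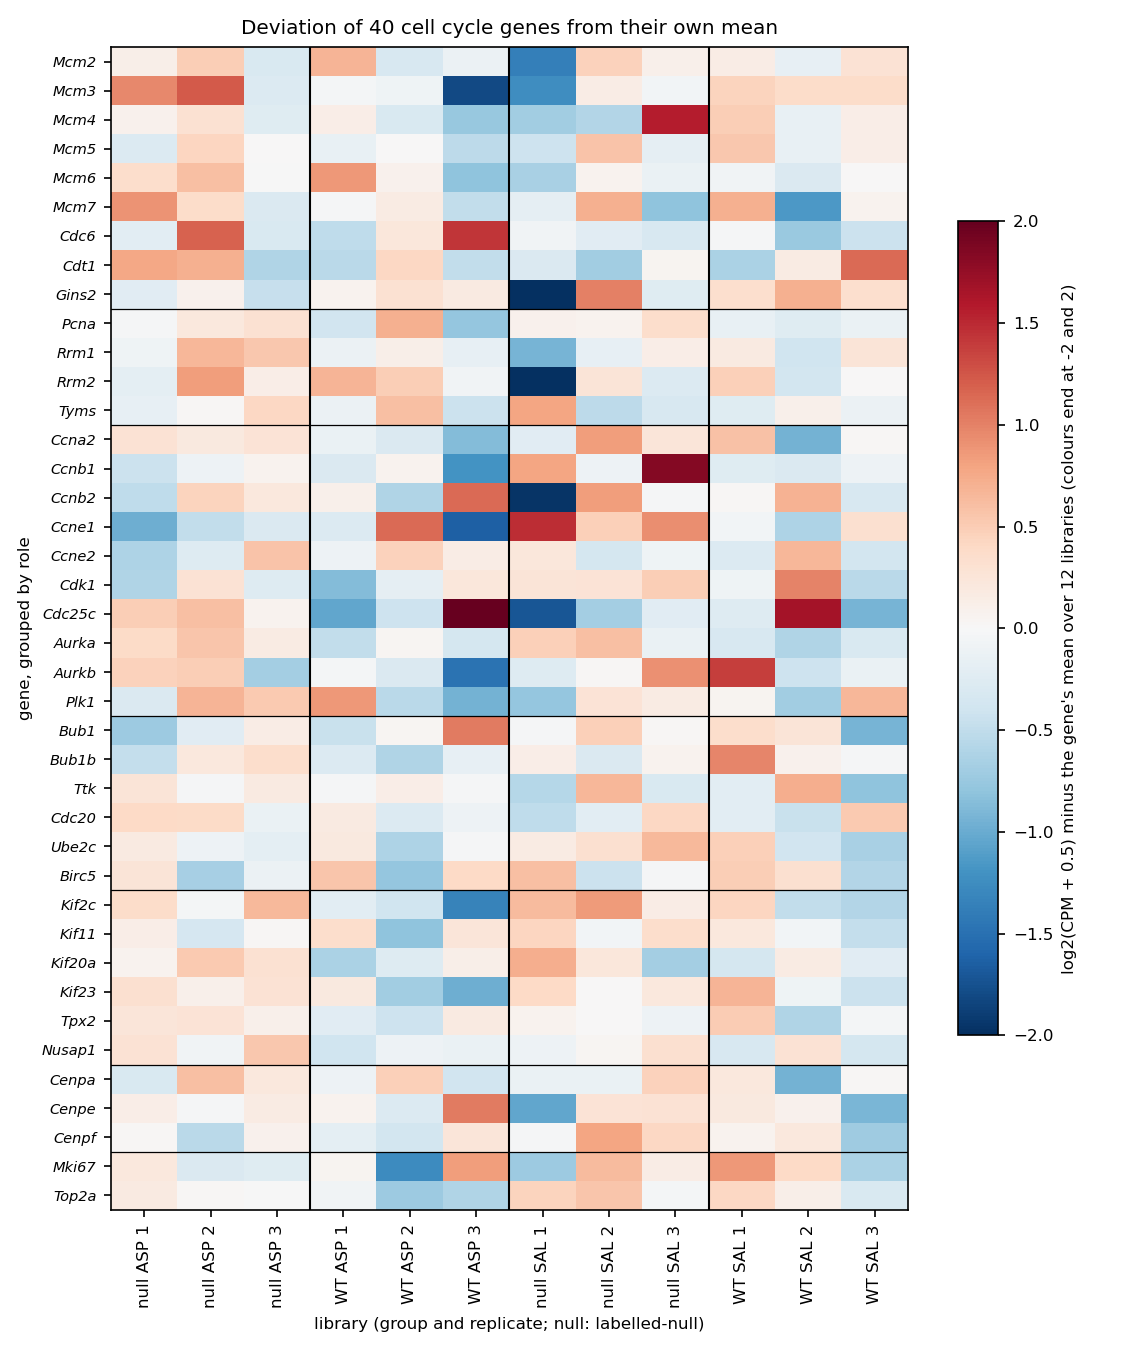
Log2 deviation of each gene from its own mean over the 12 libraries (colour scale), genes in rows grouped by role and libraries in columns grouped by genotype and treatment. Colours vary between libraries of a group, as for Cdc25c in wild-type ASP skin and Ccnb1 in labelled-null SAL skin, and no group is uniform over all rows.

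The spread within groups was like that of other genes. The median standard deviation within a group was 0.51 on the log2 scale over the 40 genes and 0.54 over all tested genes. It was smallest for Aurka, Nusap1 and Top2a, at 0.27, 0.27 and 0.30, and largest for Cdc25c at 1.21 and Ccnb2, cyclin B2, at 0.91. These values are from log2 of CPM plus 0.5, and the added 0.5 narrows the spread of genes at low levels. Aurka averaged 1.91 CPM. Its edgeR standard error for labelled-null over wild type under ASP was 0.60, against 0.29 for Top2a. Between the lowest and the highest library, Nusap1 differed 1.95-fold, Mki67 4.40-fold, Mcm3 10.6-fold and Cdc25c 28.4-fold.

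The 40 genes varied largely apart from one another. Over the 780 pairs the median Spearman correlation across the 12 libraries was 0.049, with 437 pairs above 0, against 0.000 over all pairs of tested genes. The same figure was 0.692 for 7 basal keratinocyte markers, 0.497 for 10 skeletal muscle genes and 0.357 for 12 macrophage genes. Markers of the suprabasal layer, hair, sebaceous gland and red blood cells had between 0.378 and 0.467. Other marker lists were low, with -0.056 for T cells, 0.028 for endothelial cells and 0.063 for neutrophils. Fibroblast markers had 0.084 and mast cell markers 0.126, so a low figure was not particular to the 40 genes. All points share the scaling and the 12 libraries, and pairs that share a gene are not independent. Mcm2 to Mcm7 varied together, with a median of 0.517 and 15 of 15 pairs above 0. Without the 2 libraries farthest from the rest it was 0.345, with 12 of 15 above 0. Within the 6 spindle genes the median was 0.294, with 13 of 15 pairs above 0.

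Each of the other 39 genes was correlated with Mki67 on the log2 scale (CPM plus 0.5) across the 12 libraries, with 100000 permutations and Benjamini-Hochberg adjustment over the 39. Pearson's r was positive for 24 and its median was 0.11. None passed an adjusted p of 0.05, and 7 by Pearson's r and 6 by Spearman's rho had an unadjusted permutation p under 0.05. Highest was Cenpe, with r = 0.744 and rho = 0.818 (permutation p = 0.00556 and 0.00205, adjusted 0.108 and 0.0800). Without the 2 libraries farthest from the median of Mki67, r for Cenpe was 0.761. Cenpf followed with r = 0.659 and rho = 0.706 (permutation p = 0.0201 and 0.0130, adjusted 0.162 and 0.169), then Ccnb2 with r = 0.656 and rho = 0.629 (permutation p = 0.0187 and 0.0329, adjusted 0.162 and 0.291) and Ube2c with r = 0.586 and rho = 0.552 (permutation p = 0.0458 and 0.0667, adjusted 0.255 and 0.325). Their r without those libraries was 0.719, 0.503 and 0.554.

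At the negative end stood Tyms and Pcna, genes of DNA synthesis. Tyms had r = -0.785 and rho = -0.776 (permutation p = 0.00242 and 0.00435, adjusted 0.0944 and 0.0848), and r = -0.584 without those 2 libraries. Pcna had r = -0.654 and rho = -0.594 (permutation p = 0.0208 and 0.0463, adjusted 0.162 and 0.291), and r = -0.455 without them. The libraries left out were the second wild-type ASP library and the first labelled-null SAL library, the 2 lowest for Mki67. Tyms was highest in those same libraries.

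**Figure D5:**
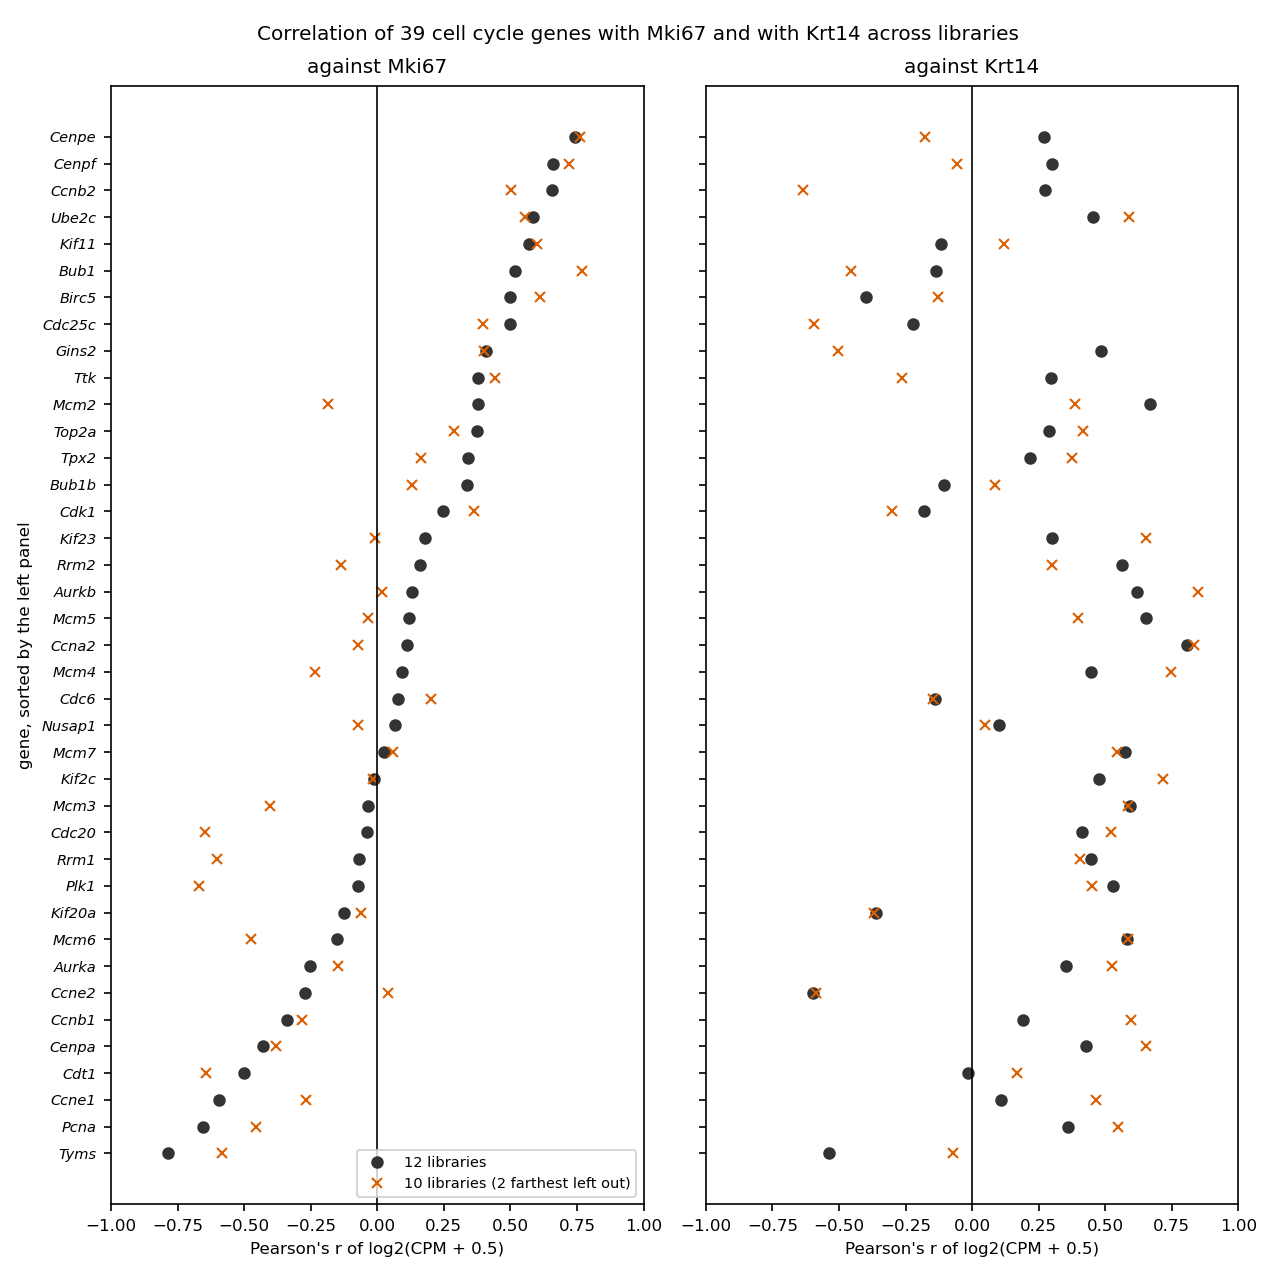
Pearson's r of each of the 39 other genes with Mki67 (left) and with the basal keratin Krt14 (right) over 12 libraries, as points, sorted by the left panel. Crosses give r over 10 libraries, without the 2 farthest from the median of Mki67 or of Krt14. Against Mki67 the points run from 0.744 for Cenpe to -0.785 for Tyms, with 24 above 0, and none passed the adjusted threshold.

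Krt14, a keratin of basal keratinocytes, was then taken as a second yardstick, chosen after the values were seen. Its level ran from 144 to 610 CPM. Over the 40 genes r was positive for 29 with a median of 0.30, and none passed an adjusted permutation p of 0.05 by r or by rho. Ccna2 had the highest r at 0.808 with rho = 0.790 (permutation p = 0.00166 and 0.00344, adjusted 0.0664 and 0.0904), and r was 0.833 without the 2 libraries farthest from the median of Krt14. Aurkb had r = 0.620 and rho = 0.776 (permutation p = 0.0315 and 0.00452, adjusted 0.240 and 0.0904), with r = 0.847 without those libraries. Mki67 had r = 0.240 and rho = 0.322 (permutation p = 0.451 and 0.310, adjusted 0.623 and 0.579), and r = -0.14 without them, so its sign rested on those libraries.

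Other genes of the same processes, which were listed by function, were not called either. Of 45 other replication and S phase genes and 50 tested genes of G2 and mitosis (51 listed), edgeR called 0 in each of the 7 comparisons. The medians of labelled-null over wild type under ASP were 0.10 and 0.24 for these lists, with 28 of 45 and 33 of 50 above 0. Over all tested genes 7146 of 15341 were above 0. At an unadjusted p under 0.05, 1 of 45 was higher and 1 lower, and 2 of 50 were higher and 1 lower, against 0.906% and 2.16% of all genes. The smallest p-values belonged to Dut, the dUTPase, with 2.79 ± 1.41 CPM in labelled-null ASP and 11.5 ± 11.5 CPM in wild-type ASP skin (SD, n = 3 each), and to E2f2, an E2F transcription factor, with 14.9 ± 5.71 CPM in labelled-null ASP and 6.46 ± 5.37 CPM in wild-type ASP skin (SD, n = 3 each). In the mitosis list they were Kif18a, a kinesin, at a log2 fold change of -1.44 ± 0.58 and Ckap2, a spindle protein, at 0.90 ± 0.38 (edgeR, unadjusted p = 0.025 and 0.0313).

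Of G1 cyclins, their kinases and Myc, 10 of 11 genes were tested and edgeR called 0 in any comparison. For labelled-null over wild type under ASP, 0 of 10 had an unadjusted p under 0.05, against 0.906% of all genes higher and 2.16% lower. There Cdc25a, a phosphatase of the G1 to S step, was at -0.70 ± 0.42 and Cdk4, the partner kinase of cyclin D, at 0.40 ± 0.37 (edgeR log2 fold change ± SE). E2f3, an E2F activator, had 8.52 ± 1.55 CPM in labelled-null ASP and 26.6 ± 21.0 CPM in labelled-null SAL skin (SD, n = 3 each), the smallest p of that list for ASP over SAL in labelled-null skin at 0.00798 (edgeR, adjusted p = 0.989). Of 21 tested inhibitors and quiescence genes, of 22 listed, edgeR called 0. In the ASP genotype comparison 1 was higher and 1 lower at an unadjusted p under 0.05, against 0.906% and 2.16% of all genes. Btg2, an anti-proliferative gene, was at 1.15 ± 0.42 for labelled-null over wild type under ASP and Cdkn1c, the inhibitor p57, at -1.16 ± 0.54 (edgeR log2 fold change ± SE, unadjusted p = 0.015 and 0.0455). Of 16 tested growth factors and receptors of keratinocytes, of 17 listed, edgeR called 0. In the same comparison 1 was higher and 0 lower at an unadjusted p under 0.05, against 0.906% and 2.16% of all genes. Hbegf, a ligand of the EGF receptor, was at 1.45 ± 0.59 and Epgn, another, at 1.18 ± 0.63 under ASP (edgeR log2 fold change ± SE, unadjusted p = 0.0242 and 0.0762). The means of Hbegf were 4.70 ± 0.13 CPM in labelled-null ASP and 1.72 ± 0.25 CPM in wild-type ASP skin (SD, n = 3 each).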

How the data were processed

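Whole-skin RNA of 12 libraries was sequenced. Per the submitters' processing notes the build was mm10 and the tools were bcl2fastq, CASAVA 1.8, TopHat and DESeq; neither the counting tool nor its strand setting is named. The authors deposited whole-number read counts per Entrez Gene ID, not normalized. Columns were mapped to samples by the genotype, treatment and replicate letters of their names, and 6 value columns that match no sample were not used. Of 23469 IDs, 23372 received a symbol, and 97 IDs without one stayed in the library totals.

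From the counts, genes were filtered with filterByExpr (15341 left), scaled by TMM (factors 0.647 to 1.28) and tested with edgeR 4.0.16 (R 4.3.3) by the quasi-likelihood F test in robust mode, with 1 coefficient per group over all 12 libraries and Benjamini-Hochberg adjustment over all tested genes. A call means an adjusted p under 0.05. The fit was checked on simulated counts with a common dispersion and 200 planted changes of log2 size 3 in the more abundant genes. It recovered 97.5% of them, with 8 false calls. Smaller changes, and changes in genes at low levels, were not simulated. A standard error is the log2 fold change over the root of F. DESeq2 1.42.0, limma 3.58.1 (voom with quality weights), RLE scaling, no filter, a replicate block, and leaving out libraries were alternatives. The limit given for a count of 0 covers counting error only. The common dispersion was 0.182.

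The named genes are, in each comparison, the 4 smallest p-values in each direction, and 2 for each other list, given for the ASP genotype comparison. E2f3 is named outside this rule, for ASP over SAL in labelled-null skin. The 40 genes and all lists were chosen with earlier results of these data known. Promoters and gene spans are from RefSeq GRCm38.p6. Flg, Krt85, Trbc2, Trac, Trdc, Ly6g and Hbb-bt are not analysed here.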

Additional observations from a re-analysis of the deposited data

How the results depend on the processing

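None of the 40 genes was called in any of the 7 comparisons under any alternative run: RLE size factors, no filter, DESeq2, limma-voom, a replicate block, the compared libraries alone, totals without Mup genes and IDs with no symbol, and leaving out the 2 farthest libraries or each library in turn. Counts over all genes moved. DESeq2 called 2 higher and 3 lower for labelled-null over wild type under ASP, 6 higher under SAL, and 6 higher and 2 lower averaged over treatments. It called 1 higher and 1 lower for ASP over SAL in wild-type skin, 2 lower in labelled-null skin and 1 lower for the interaction. For the averaged genotype comparison limma-voom called 2 higher and 1 lower, no filter gave 1 lower, and the replicate block and leaving out the 2 farthest libraries each gave 0 higher. Leaving out those 2 gave 1 higher for ASP over SAL in wild-type skin. Leaving out 1 library at a time gave 0 to 2 higher genes in the averaged genotype comparison. The cause of these shifts was not tested.

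The median log2 fold change of the 40 genes depended on single libraries. With each left out in turn it ran from 0.15 to 0.31 for the ASP genotype comparison (0.18 with all; 0.31 without the first wild-type ASP library), from 0.055 to 0.18 averaged over treatments (0.12 with all; 0.055 without the second wild-type SAL library), and from 0.050 to 0.35 for the interaction (0.14 with all; 0.35 without the second and 0.050 without the first labelled-null SAL library). Its sign changed in the other comparisons. For the SAL genotype comparison it ran from -0.046 without the third wild-type SAL library to 0.20 without the first (0.05 with all). For ASP over SAL it ran from -0.198 without the first wild-type ASP library to 0.029 without the first wild-type SAL library in wild-type skin (-0.08 with all), and from -0.031 without the second labelled-null ASP library to 0.138 without the second labelled-null SAL library in labelled-null skin (0.04 with all; -0.0093 without the first labelled-null SAL library). Averaged over genotypes (0.03 with all) it was below 0 in 8 of the 12 cases, down to -0.089 without the third wild-type ASP library, and was -0.016 in limma-voom. Without the 2 farthest libraries the median of ASP over SAL was -0.010 in labelled-null skin and -0.062 averaged over genotypes. The RLE and Mup alternatives moved the median of all genes by less than 0.1. Without the 2 farthest libraries, 5 genes lay wholly above and 2 below in the SAL genotype comparison (9.93% and 10.5% of all genes), 3 above and 4 below for ASP over SAL in labelled-null skin (11.6% and 11.1%) and 2 above and 3 below in wild-type skin (8.17% and 8.12%).

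Of the 56 gene values named by comparison, 6 changed sign without 1 library, and 43, these included, changed sign or moved by over 1.5 times. Cdc25c (-0.79 under ASP) was 0.94 in limma-voom, 1.27 without the 2 farthest libraries and -1.29 to 1.27 over single libraries left out. Its averaged genotype value (-1.15) was 0.23 in limma-voom and 0.061 without the 2 farthest, and its averaged ASP value (0.95) was -0.25 without them and -0.075 to 1.60 over single libraries left out. Ccne1 under ASP ran from -1.70 to 0.38. For ASP over SAL in wild-type skin, Bub1 was -0.19 without the 2 farthest and ran from -0.20 to 0.65, and Mcm6 ran from -0.20 to 0.66. The averaged genotype value of Ccne2 ran from -0.38 to 0.039. Mki67 against Krt14 went to r = -0.14 without the 2 libraries farthest in Krt14.

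Replicate numbers did not pair libraries. Correlations of deviations between same-numbered libraries ran from -0.23 to 0.19, and 1 or 2 of 6 libraries in a comparison correlated best with their own number. With the replicate block the member medians were 0.18 under ASP and 0.05 under SAL. Depth limits Ccne1, Cdc6, Plk1 and Aurka, which had fewer than 50 counts in each library.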
